A study of Mus musculus with 4 samples.

Results

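The 55 genes described here run the cell division cycle and copy the DNA. They were taken by symbol from a list whose rule uses no measured value, and all 55 were found among the 55536 rows of the deposited table. They fall into 16 genes of the G1/S decision (cyclins, their kinases, inhibitors and the retinoblastoma and E2F proteins), 16 genes of DNA replication and nucleotide supply, and 23 genes of G2 phase and mitosis (G2/M). RNA was sequenced from the stromal vascular fraction, the cells of fat tissue that remain once the fat cells are removed, of inguinal white fat of wild-type male mice at postnatal day 21. There were 4 libraries, each a pool of 3 mice: LnF1 given water, LnF1 given 1,3BD, ObF1 given water and ObF1 given 1,3BD. The series' title is about parental obesity, and the labels tell the 2 groups of offspring apart only as LnF1 and ObF1. The drink is written 1,3BD, as in the labels. No combination of parents and drink had a second library.

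As background, D-type cyclins with CDK4 or CDK6, and then cyclin E with CDK2, phosphorylate the retinoblastoma protein and release E2F factors, which switch on the genes needed to copy DNA. Genes used later, in G2 and mitosis, are switched on by complexes that hold B-MYB and FOXM1 and bind the CHR element, often beside CCAAT boxes bound by NF-Y. In young fat pads, dividing progenitors in the stromal fraction supply new fat cells.

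Promoters were searched for the letters of these switches, and 8 are shown because they belong to genes on which the results turn. RefSeq promoters (GRCm38.p6, 250 bases before to 50 after each start, 300 bases in all) were matched by symbol for 43 of the 55 genes, giving 51 promoters. The 3 kinds of letters below were searched on both strands: the E2F site as TTTGGCGC or TTTCCCGC, the CHR element as TTTGAA, and the CCAAT box as CCAAT. No match of one kind overlapped a match of another in these promoters. Each sequence runs 5′ to 3′ along the gene's own strand, and capitals mark the matches in either orientation. The first pair are subunits of the replicative helicase that were lower with 1,3BD, Mcm6 at chr1:128359656-128359955 (minus strand) and Mcm3 at chr1:20820263-20820562 (minus strand):
Mcm6: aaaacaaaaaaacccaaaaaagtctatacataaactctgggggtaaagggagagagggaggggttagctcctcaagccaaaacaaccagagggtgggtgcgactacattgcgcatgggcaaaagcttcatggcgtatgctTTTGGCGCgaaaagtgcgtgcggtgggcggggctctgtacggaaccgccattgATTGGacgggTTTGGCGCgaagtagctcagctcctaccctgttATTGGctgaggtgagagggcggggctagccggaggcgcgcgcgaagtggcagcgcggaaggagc
Mcm3: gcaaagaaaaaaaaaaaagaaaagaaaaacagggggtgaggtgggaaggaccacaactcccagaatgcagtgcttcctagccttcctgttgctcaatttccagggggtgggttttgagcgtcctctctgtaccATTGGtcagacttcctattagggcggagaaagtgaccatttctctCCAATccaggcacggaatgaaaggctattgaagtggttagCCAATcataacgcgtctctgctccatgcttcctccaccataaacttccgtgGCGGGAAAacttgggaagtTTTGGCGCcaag
Mcm6 holds 2 E2F matches and Mcm3 holds 2, and neither holds a CHR match.

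The next pair are the large and small subunits of ribonucleotide reductase, which moved in opposite directions, Rrm1 at chr7:102441445-102441744 (plus strand) and Rrm2 at chr12:24708004-24708303 (plus strand):
Rrm1: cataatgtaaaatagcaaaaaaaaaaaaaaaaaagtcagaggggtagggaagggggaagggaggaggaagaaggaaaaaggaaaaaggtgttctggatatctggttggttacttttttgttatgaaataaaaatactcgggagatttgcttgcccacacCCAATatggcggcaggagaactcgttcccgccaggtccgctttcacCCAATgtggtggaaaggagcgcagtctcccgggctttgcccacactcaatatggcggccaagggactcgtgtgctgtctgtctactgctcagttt
Rrm2: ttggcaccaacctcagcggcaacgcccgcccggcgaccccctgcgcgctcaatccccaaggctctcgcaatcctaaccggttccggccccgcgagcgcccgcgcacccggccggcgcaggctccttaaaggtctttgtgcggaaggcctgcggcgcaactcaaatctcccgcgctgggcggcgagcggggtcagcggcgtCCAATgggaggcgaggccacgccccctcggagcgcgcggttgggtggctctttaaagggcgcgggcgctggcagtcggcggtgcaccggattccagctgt
Both hold CCAAT matches alone, 2 in Rrm1 and 1 in Rrm2.

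The last 4 are mitotic genes with a CHR match, of which Cdc20 (chr4:118437294-118437593 (minus strand)) and Plk1 (chr7:122159185-122159484 (plus strand)) were lower with 1,3BD while Mki67 (chr7:135716330-135716629 (minus strand)) and Kif11 (chr19:37376132-37376431 (plus strand)) did not pass the test:
Cdc20: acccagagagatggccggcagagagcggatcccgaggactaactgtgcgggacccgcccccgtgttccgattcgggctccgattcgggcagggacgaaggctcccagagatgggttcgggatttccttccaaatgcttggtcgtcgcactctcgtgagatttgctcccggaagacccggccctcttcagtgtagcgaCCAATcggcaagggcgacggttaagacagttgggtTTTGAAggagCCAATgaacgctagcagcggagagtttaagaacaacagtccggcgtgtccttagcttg
Plk1: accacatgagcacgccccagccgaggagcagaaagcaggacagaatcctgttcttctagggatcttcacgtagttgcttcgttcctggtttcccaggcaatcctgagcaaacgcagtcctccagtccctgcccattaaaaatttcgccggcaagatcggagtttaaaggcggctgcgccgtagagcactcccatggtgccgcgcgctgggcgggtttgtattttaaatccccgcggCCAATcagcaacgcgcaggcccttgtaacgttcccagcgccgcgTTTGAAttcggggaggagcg
Mki67: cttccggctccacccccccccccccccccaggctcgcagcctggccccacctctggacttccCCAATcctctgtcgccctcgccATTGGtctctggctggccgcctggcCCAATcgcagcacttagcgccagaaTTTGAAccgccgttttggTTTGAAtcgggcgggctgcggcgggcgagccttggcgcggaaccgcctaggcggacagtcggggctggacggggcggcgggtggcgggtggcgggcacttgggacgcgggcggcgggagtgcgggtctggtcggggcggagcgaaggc
Kif11: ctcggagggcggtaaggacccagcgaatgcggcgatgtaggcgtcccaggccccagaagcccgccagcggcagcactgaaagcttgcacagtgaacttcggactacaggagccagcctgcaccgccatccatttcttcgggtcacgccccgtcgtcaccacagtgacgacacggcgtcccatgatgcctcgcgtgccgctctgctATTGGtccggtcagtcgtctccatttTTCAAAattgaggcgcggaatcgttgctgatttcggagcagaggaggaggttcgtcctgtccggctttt
All 4 also hold at least 1 CCAAT match, so the pair that fell and the pair that did not pass share both kinds of letters.

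Motif matches differed between the role groups. E2F letters stood in 7 of 18 replication promoters (38.9%), in 2 of 16 G1/S promoters (12.5%) and in 0 of 17 G2/M promoters, against 1.56% of all 32851 RefSeq mouse promoters of the same length. CHR letters stood in 11 of 17 G2/M promoters (64.7%), in 11.1% of replication promoters and in 6.25% of G1/S promoters, against 17.9% of all promoters. CCAAT letters stood in 82.4% of G2/M, 55.6% of replication and 31.2% of G1/S promoters, against 37.4% of all. Promoters of the 55 genes had a median GC content of 60.3%, against 52.7% over all promoters. A match describes these letters only, and no binding was measured.

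**Figure D1:**
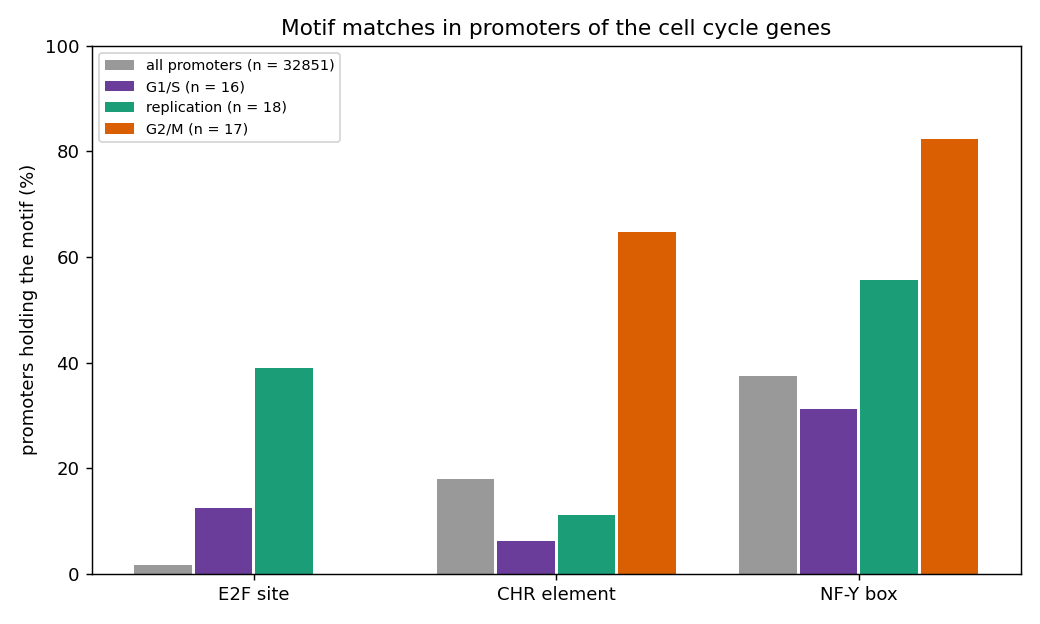
Share of promoters (%, vertical axis) that hold at least 1 match to the E2F site, the CHR element or the CCAAT box (labelled NF-Y box), for all RefSeq mouse promoters and for the 3 role groups. E2F matches are most frequent in replication promoters (38.9%) and CHR matches in G2/M promoters (64.7%).

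Values are deposited read counts scaled to library size (CPM), in which 1 read was worth 0.0359 to 0.0434 CPM, and libraries held 24586827 to 26000090 reads. All 55 genes entered the test, which took the 12838 genes that reached 1 CPM in 2 or more libraries. Of these 55, 54 exceeded 1 CPM in all 4 libraries. The exception was Fen1, which rests on 8 to 36 reads. Markers of progenitors were present and Pdgfra stood at 243, 236, 281 and 412 CPM, in the order LnF1 water, ObF1 water, LnF1 1,3BD and ObF1 1,3BD, which is used for every set of 4 values below. The progenitor list summed to 565, 436, 515 and 632 CPM. Of its 5 genes tested, 4 were lower with 1,3BD in LnF1 and 2 in ObF1, so Pdgfra does not stand for the list. Markers of white blood, endothelial, red and mature fat cells were low or absent, while contractile and mural markers were high with water, as given below. White blood cell genes summed to 2.90 to 17.7 CPM with Cd3e and Cd79b at 0. Endothelial genes summed to 1.29 to 20.0 CPM and red cell genes to at most 0.645 CPM. Mature fat cell genes summed to 0.382, 0.0434, 5.27 and 1.84 CPM with Adipoq and Lep at 0. Epithelial and mesothelial genes summed to 55.1, 88.6, 3.01 and 9.45 CPM with Epcam at 0, and Schwann cell genes to 2.67, 15.6, 1.97 and 0.712 CPM. Of the markers tested, 2 of 2 white blood cell, 3 of 3 endothelial, 1 of 1 epithelial, 0 of 2 Schwann cell and 1 of 5 progenitor genes were lower with 1,3BD by limma. The 1 fat cell gene tested, Plin1, rose by 4.47 (SE 0.55, limma adjusted p = 0.0001). The 7 contractile and mural genes were all lower with 1,3BD, with a summed level of 9054 and 9786 CPM with water and 148 and 226 CPM with 1,3BD, and Acta2, smooth muscle actin, made most of it (7692, 8097, 113 and 165 CPM). Mitochondrial reads made 1.13%, 1.30%, 2.78% and 5.80% of the libraries.

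Levels were ranked per kilobase of exon, counting all annotated exons of each gene, so ranks depend on that annotation. On that scale the highest levels were those of G1/S genes. The mean of the water libraries was 202 CPM per kb for Ccnd2, 139 for Cdkn1a, 66.6 for Cdk4, 45.8 for Cdkn2a and 42.3 for Cdkn2b. Next came Rrm2 (23.7) and Ccnd1 (23.6), whose levels cannot be ranked against each other at this difference, and the lowest were Cdc6 (0.885) and Fen1 (0.595). Cyclin D2 was thus the main D cyclin of this fraction: it made 80.4%, 87.1%, 85.8% and 87.3% of the summed D cyclin level per kb. Ccnd1 made 11.9% and 7.78% of that level with water and 2.49% and 3.54% with 1,3BD.

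**Figure D2:**
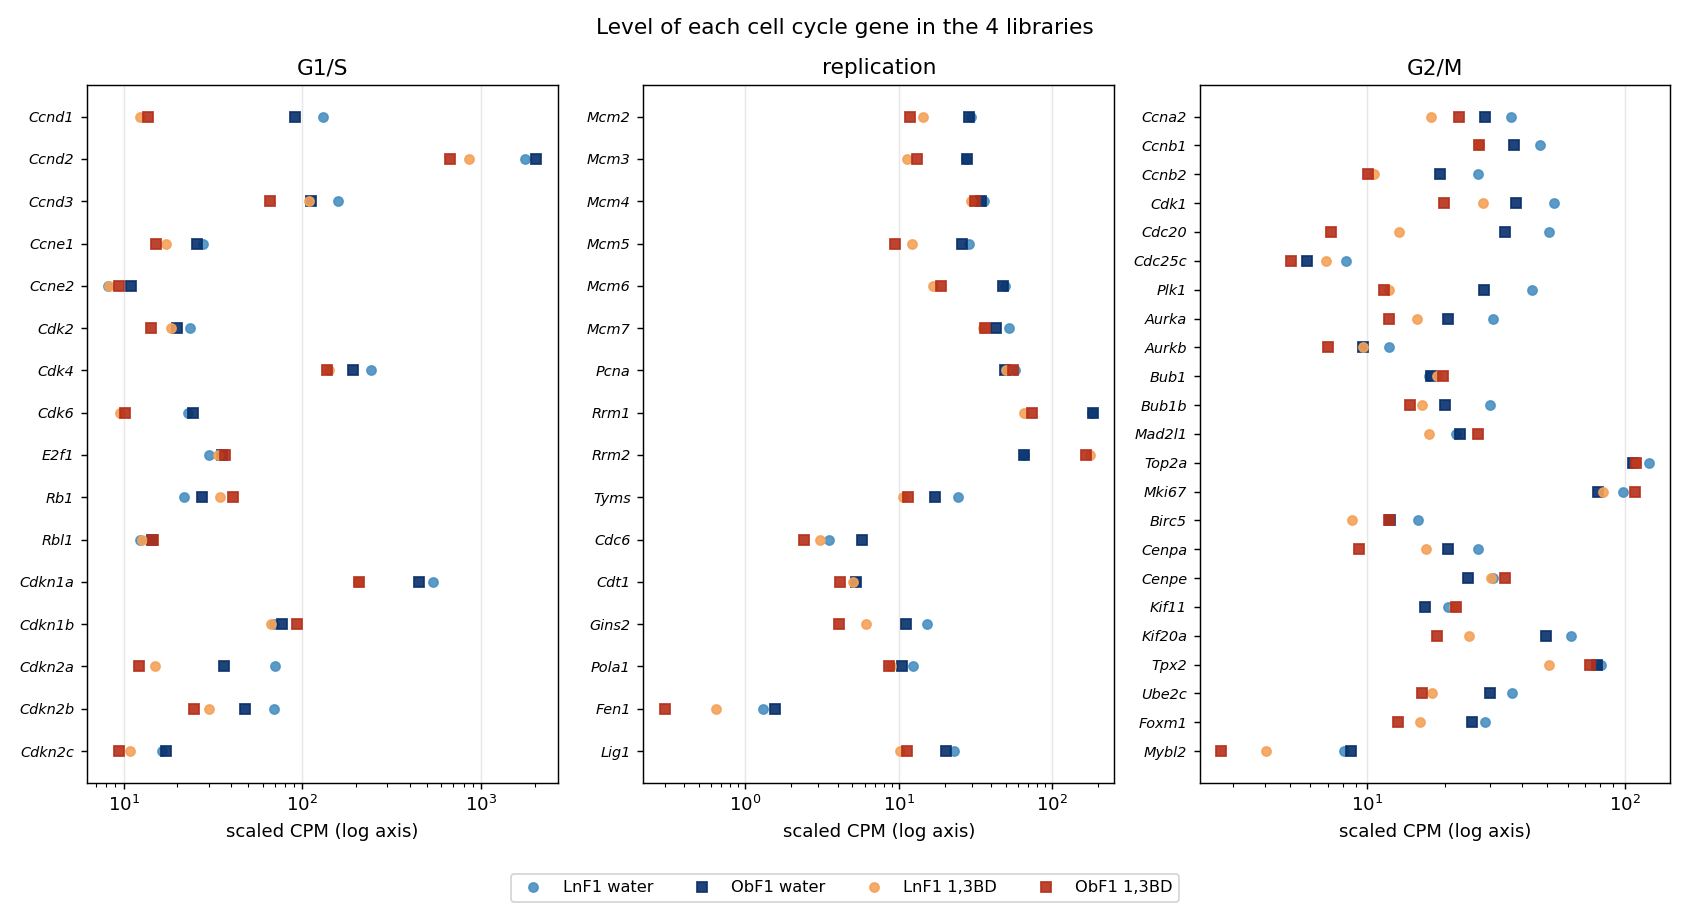
Level of each of the 55 genes in scaled CPM (horizontal log axis) in the 4 libraries, by role group, with 1 point per library. For Ccnd1, Cdk6, the lower Mcm genes, Rrm1 and Cdc20 both water libraries lie to the right of both 1,3BD libraries, and for Rrm2 both lie to the left, while the points of Pcna, Mki67 and Top2a are interleaved.

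The main contrast in these genes was the drink. With 1,3BD, 32 of the 55 genes were lower (58.2%) and 2 were higher, Rb1 and Rrm2, and 21 did not pass, by limma with Benjamini-Hochberg adjusted p under 0.05. Over all 12838 genes tested the same contrast called 24.8% lower and 19.2% higher. The median log2 difference, 1,3BD minus water, was -0.71 over the 55 genes and -0.06 over all genes tested. By role, 10 of 16 G1/S genes were lower and 1 higher (median -0.68), 9 of 16 replication genes were lower and 1 higher (median -0.94), and 13 of 23 G2/M genes were lower and 0 higher (median -0.66). The direction repeated between the parental groups for most genes: 42 of 55 were lower with 1,3BD in both, against 43.5% of all genes tested, 6 were higher in both and 7 went opposite ways. The medians were -0.78 in LnF1 and -0.75 in ObF1.

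At least 2-fold lower levels in both parental groups were found for 14 of the 55 genes, against 12.6% of all genes tested, and at least 2-fold higher levels for 1, Rrm2, against 7.37%. The error of each limma difference rests on how far it failed to repeat between the parental groups, moderated over genes, with 1 residual degree of freedom. P-values therefore measure the spread among these 4 pools and not that between animals. Fits on 3 libraries could not keep the parents in the model with a residual degree of freedom, so they dropped that term as well as a library. They left 8 genes lower without LnF1 water (9.60% of all genes), 27 without LnF1 1,3BD (21.3%), 12 without ObF1 water (10.3%) and 17 without ObF1 1,3BD (13.5%), and dropping the parents alone, with all 4 libraries, left 24 (19.6%). Across the 4 fits on 3 libraries all 34 called genes kept their direction. These fits reuse the libraries behind the calls, and the same share over all genes called is not given here. On the recovered reads, edgeR called 28 of the 55 lower and 2 higher (22.5% of all genes lower) and DESeq2 called 26 lower and 2 higher (20.0% of all genes lower). With library totals in place of the deposited scaling factors, 22 genes stayed lower (17.7% of all genes were lower), the median of all genes moved from -0.06 to 0.19, and that of the 55 genes relative to it was -0.66 in place of -0.65. That scaling also changed the share of all called genes that were higher from 43.6% to 61.9%. In bulk RNA, fewer dividing cells and less of these RNAs per cell cannot be told apart. These marker lists and the mitochondrial share moved with the drink as given above, and their part in these differences was not tested.

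**Figure D3:**
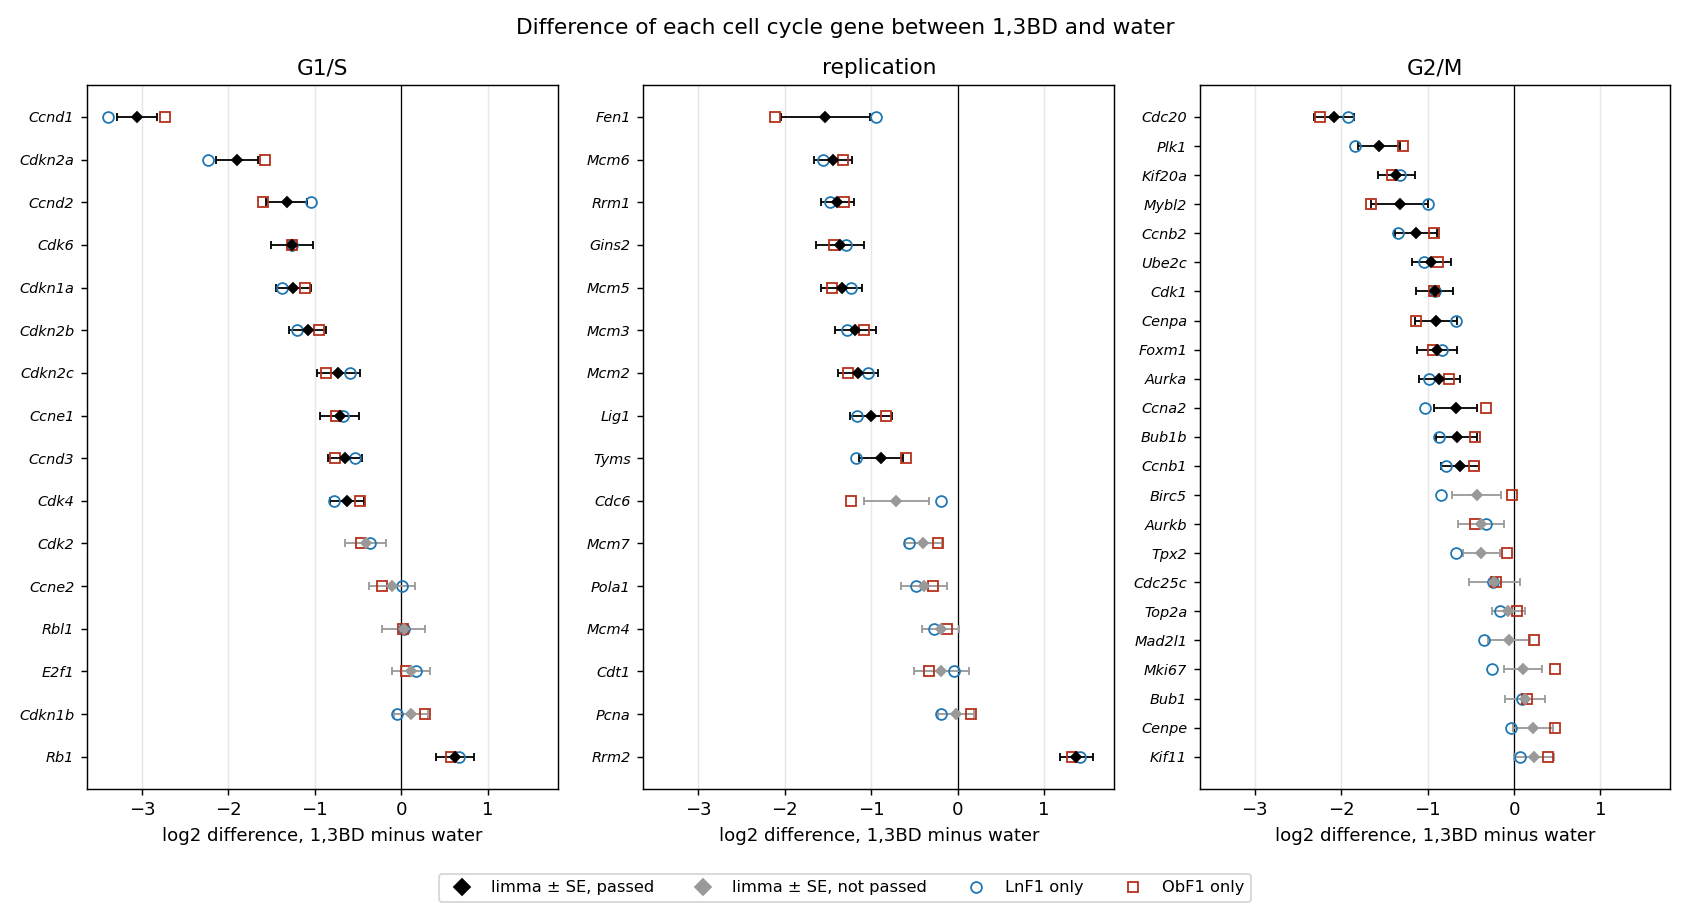
Log2 difference of each gene between 1,3BD and water (horizontal axis) by role group. Diamonds with bars give the limma estimate ± SE, black where the adjusted p was under 0.05 and grey otherwise, and open circles and squares give the difference between single libraries in LnF1 and ObF1. Most black diamonds lie to the left of 0, with Rb1 and Rrm2 to the right.

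Among the cyclins that open the cycle, Ccnd1 fell most. Cyclin D1 (ENSMUSG00000070348, minus strand of chr7:144929931-144939925 in GRCm38) stood at 131 and 91.3 CPM with water and at 12.4 and 13.7 CPM with 1,3BD. Both water libraries were far above both 1,3BD libraries, and the limma difference was -3.06 (SE 0.23, adjusted p = 4e-06), 8.34-fold lower. The fold of the deposited values was 0.0949 in LnF1 (95% counting interval 0.0847 to 0.106) and 0.150 in ObF1 (0.134 to 0.168). About 23.4% of the Ccnd1 exon length overlaps Oraov1 on the opposite strand, as do 19.7% of that of Cdk4 with Tspan31 and 22.8% of that of Ube2c with Tnnc2, and whether strand was used in the count is not given in the sources used here.

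Ccnd2 (1765, 2043, 853 and 674 CPM) fell by 1.32 (log2, SE 0.24, adjusted p = 0.00115 by limma). Ccnd3 (158, 112, 109 and 65.6 CPM) fell less, by 0.65 (SE 0.19, limma adjusted p = 0.019), with ObF1 water only just above LnF1 1,3BD. Cdk6 (22.9, 24.6, 9.50 and 10.2 CPM), a kinase partner of the D cyclins, fell by 1.27 (SE 0.24, limma adjusted p = 0.0017) and by almost the same amount in both parental groups (-1.26 and -1.27). The other partner, Cdk4 (242, 191, 141 and 137 CPM), fell by 0.63 (SE 0.20, limma adjusted p = 0.0226). In the main fit all 3 D cyclins and both of their kinases were thus called lower with 1,3BD, against 24.8% of all genes tested. With a trend on transcript length and GC content removed, Ccnd3 (-0.26, limma adjusted p = 0.294) and Cdk4 (-0.29, limma adjusted p = 0.258) did not pass. Nor did they with library totals (-0.40 and -0.38, limma adjusted p = 0.116 and 0.132).

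In the next step, cyclin E with CDK2, only Ccne1 passed. Ccne1 (27.7, 25.7, 17.3 and 15.2 CPM) fell by 0.71 (SE 0.23, limma adjusted p = 0.026). Ccne2 stood at 8.23, 11.0, 8.32 and 9.45 CPM with overlapping groups and a limma difference of -0.10 (SE 0.27, adjusted p = 0.775). Cdk2, the kinase of cyclin E, differed by -0.41 (SE 0.23, limma adjusted p = 0.171).

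Most of the CDK inhibitors listed, which are brakes of the cycle, fell as well. Cdkn1a, a CDK inhibitor induced by p53, stood at 537 and 449 CPM with water and at 206 and 208 CPM with 1,3BD, and fell by 1.25 (SE 0.20, limma adjusted p = 0.000627). Cdkn2a, whose locus encodes an inhibitor of CDK4 and CDK6 and the ARF protein from separate first exons, stood at 70.7, 36.7, 15.0 and 12.3 CPM. It fell by 1.90 (SE 0.24, limma adjusted p = 0.000136). The deposited value sums both products, so they could not be separated.

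The neighbouring inhibitor Cdkn2b (69.6, 48.1, 30.0 and 24.7 CPM) fell by 1.08 (SE 0.21, limma adjusted p = 0.00215). Cdkn2c (16.3, 17.2, 10.8 and 9.41 CPM) fell by 0.73 (SE 0.25, limma adjusted p = 0.0352). Cdkn1b, an inhibitor of cyclin E with CDK2 (69.3, 76.9, 67.2 and 93.0 CPM), differed by 0.11 (SE 0.20, limma adjusted p = 0.671). So 4 of the 5 inhibitors listed were lower, against 24.8% of all genes tested. With library totals Cdkn2c did not pass (-0.48, limma adjusted p = 0.14). With the trend on transcript length and GC content removed, Cdkn2c stood at -0.07 (limma adjusted p = 0.828) and Cdkn2b at -0.52 (limma adjusted p = 0.0612), neither passing, while Cdkn1a (-0.84) and Cdkn2a (-1.14) still passed.

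None of the retinoblastoma and E2F members was called lower. Rb1, the pocket protein that holds E2F in check, stood at 21.7, 27.4, 34.5 and 40.8 CPM, higher in both 1,3BD libraries, and rose by 0.62 (SE 0.22, limma adjusted p = 0.0379). Removing the trend of the difference with transcript length and GC content took the Rb1 difference to 0.05 (limma adjusted p = 0.866), and Rb1 passed in 0 of the 4 fits on 3 libraries. Its relative Rbl1 (12.3, 14.4, 12.6 and 14.6 CPM) differed by 0.03 (SE 0.25, limma adjusted p = 0.936). E2f1 (30.1, 35.5, 33.8 and 36.9 CPM) differed by 0.11 (SE 0.22, limma adjusted p = 0.692), and by 0.76 (limma adjusted p = 0.0146) once the same trend was removed.

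Among the replication genes, the helicase subunits split. Mcm2 to Mcm7 encode the ring that unwinds DNA, and 4 of these 6 were lower with 1,3BD, against 24.8% of all genes tested. Mcm6 stood at 49.5, 47.6, 16.7 and 18.9 CPM and fell by 1.44 (SE 0.22, limma adjusted p = 0.000458). Mcm5 (28.7, 26.0, 12.2 and 9.49 CPM) fell by 1.34 (SE 0.24, limma adjusted p = 0.00113), Mcm3 (27.6, 28.0, 11.3 and 13.2 CPM) by 1.19 (limma adjusted p = 0.00219) and Mcm2 (29.7, 28.9, 14.5 and 11.9 CPM) by 1.15 (limma adjusted p = 0.00246). Water and 1,3BD libraries did not overlap in any of these 4. The calls came from the same values, so this is no separate support, and the same share over all genes tested is not given here. Mcm4 (35.8, 34.4, 29.7 and 31.6 CPM) differed by -0.20 (SE 0.22, limma adjusted p = 0.487) and Mcm7 by -0.40 (SE 0.22, limma adjusted p = 0.154), although all 6 proteins sit in 1 ring.

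Gins2, a subunit of the complex that completes the active helicase (15.2, 11.2, 6.17 and 4.09 CPM), fell by 1.36 (SE 0.28, limma adjusted p = 0.00249). About 67.3% of its exon length overlaps Gse1 on the opposite strand. The loading factors Cdc6 and Cdt1 were rare, at 2.40 to 5.74 and 4.16 to 5.26 CPM, and differed by -0.71 (SE 0.38, limma adjusted p = 0.149) and -0.19 (SE 0.32, limma adjusted p = 0.656).

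At the fork, Lig1, the ligase that joins newly made fragments (22.9, 20.4, 10.1 and 11.4 CPM), fell by 1.00 (SE 0.25, limma adjusted p = 0.00722). Pcna, the sliding clamp, stood at 57.3, 49.6, 50.3 and 55.1 CPM, with interleaved groups and a difference of -0.02 (SE 0.21, limma adjusted p = 0.953). The sign of that difference turned under 4 full alternative fits and in 2 of the 4 fits on 3 libraries. Pola1, the catalytic subunit of the priming polymerase, differed by -0.39 (SE 0.26, limma adjusted p = 0.251). Fen1, the flap nuclease, fell by 1.53 (SE 0.52, limma adjusted p = 0.0329) on 31, 36, 18 and 8 reads, and 78.8% of its exon length overlaps Gm10143 on the opposite strand.

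Nucleotide supply gave the sharpest contrast between partners. Ribonucleotide reductase, which makes the building blocks of DNA, needs both a large subunit, Rrm1, and a small subunit, Rrm2. Rrm1 stood at 182, 184, 65.4 and 73.8 CPM and fell by 1.39 (SE 0.19, limma adjusted p = 0.00023). Rrm2 stood at 65.8, 65.7, 176 and 165 CPM and rose by 1.37 (SE 0.19, limma adjusted p = 0.000251), 2.59-fold. Within LnF1 the fold of Rrm2 was 2.67 (95% counting interval 2.52 to 2.83) and within ObF1 it was 2.51 (2.37 to 2.66).

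The level of Rrm2 per kb was 1.44 and 1.42 times that of Rrm1 with water, and 10.7 and 8.88 times with 1,3BD. That scale counts all annotated exons, 11012 bases for Rrm1 and 2771 for Rrm2. Without division by length the ratio was 0.362 and 0.358 with water and 2.69 and 2.23 with 1,3BD. Which subunit stood higher with water thus depends on the length used, while the rise of the ratio with 1,3BD does not. Both subunits passed in all 11 full alternative fits and in all 4 fits on 3 libraries. Tyms, which makes thymidylate (24.2, 17.3, 10.7 and 11.5 CPM), fell by 0.89 (SE 0.26, limma adjusted p = 0.0162), in the direction of Rrm1. Rrm2 was the 1 replication gene of the 16 with a positive difference.

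Of the 23 G2/M genes, 13 fell, against 24.8% of all genes tested, and 10 did not pass the test. The largest fall was in Cdc20, the activator of the anaphase-promoting complex, at 50.8, 34.4, 13.3 and 7.20 CPM. It fell by 2.09 (SE 0.23, limma adjusted p = 5.66e-05), 4.24-fold. Plk1, a mitotic kinase (43.6, 28.4, 12.1 and 11.6 CPM), fell by 1.56 (SE 0.24, limma adjusted p = 0.000514). Kif20a, a kinesin of cytokinesis (62.0, 49.6, 24.9 and 18.6 CPM), fell by 1.36 (SE 0.21, limma adjusted p = 0.000543), and 29.3% of its exon length overlaps Cdc23 on the opposite strand.

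The 2 transcription regulators of the mitotic programme fell too: Mybl2, which encodes B-MYB (8.11, 8.65, 4.02 and 2.70 CPM), by 1.32 (SE 0.33, limma adjusted p = 0.00724), and Foxm1 (28.7, 25.4, 16.1 and 13.2 CPM) by 0.89 (SE 0.23, limma adjusted p = 0.0097). Of the mitotic cyclins and their kinase, Ccnb2 (26.9, 19.2, 10.6 and 10.1 CPM) fell by 1.13 (SE 0.25, limma adjusted p = 0.00385). Cdk1 (53.2, 37.8, 28.3 and 19.8 CPM) fell by 0.92 (SE 0.22, limma adjusted p = 0.00571). Ube2c, the ubiquitin enzyme that works with Cdc20's complex (36.6, 30.0, 17.8 and 16.3 CPM), fell by 0.96 (SE 0.23, limma adjusted p = 0.00582). The smaller calls were Ccna2, Ccnb1, Aurka, Bub1b and Cenpa, with differences between -0.90 (Cenpa) and -0.62 (Ccnb1).

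The markers most used to count dividing cells did not pass the test. Mki67, which encodes the Ki-67 antigen, stood at 98.5, 79.0, 82.7 and 109 CPM, with the highest and the lowest value both in ObF1 and a limma difference of 0.11 (SE 0.22, adjusted p = 0.711). Its sign turned in 2 of the 4 fits on 3 libraries and once the trend with length and GC content was removed (-0.21, limma adjusted p = 0.457). Top2a, the topoisomerase that untangles chromosomes, stood at 125, 108, 111 and 110 CPM, interleaved, with a difference of -0.07 (SE 0.19, limma adjusted p = 0.803). With the trend removed that became -0.57 (limma adjusted p = 0.0331). Pcna, Mki67 and Top2a were picked for this comparison after their values were seen.

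Others of this kind were the motor proteins Kif11 (20.6, 16.8, 21.6 and 22.0 CPM) and Cenpe (30.9, 24.6, 30.2 and 34.2 CPM) and the checkpoint kinase Bub1 (17.4, 17.6, 18.6 and 19.7 CPM). Their limma differences were 0.23 (SE 0.23, adjusted p = 0.444), 0.22 (SE 0.23, adjusted p = 0.457) and 0.13 (SE 0.23, adjusted p = 0.683). All 3 turned negative, still without passing, once the trend with length and GC content was removed (-0.32, -0.30 and -0.40). Cdc25c, Aurkb, Tpx2, Birc5 and Mad2l1 also did not pass, with differences between -0.43 (Birc5) and -0.06 (Mad2l1).

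Base composition and exon length both ran alongside this division. Across the 23 G2/M genes the drink difference had a Spearman rho of -0.82 and a Pearson r of -0.79 with transcript GC content, and across all 55 genes -0.53 and -0.49. Over all genes tested with a known transcript (12832) the values were -0.45 and -0.37. With exon length, rho was 0.64 across the 23 G2/M genes and 0.20 over all these genes. Pearson r with log2 exon length was 0.71 and 0.14. These are correlations across genes, which share libraries, are not independent replicates and carry no p. The 13 G2/M genes that were lower had a median transcript GC content of 50.4% (range 44.2% to 56.3%), and the 10 that did not pass one of 43.7% (40.1% to 52.5%). Their median exon lengths were 4217 and 6190 bases.

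With a smooth trend on length and GC content removed from the differences, 23 of the 32 lower genes stayed lower. With 4 others (Ccne2, Mad2l1, Pola1 and Top2a), 27 of the 55 were then lower, against 21.7% of all genes. The median was -0.63 over the 55 genes and -0.07 over all genes. The 9 that no longer passed were Bub1b, Ccnd3, Ccne1, Cdk4, Cdkn2b, Cdkn2c, Fen1, Foxm1 and Ube2c. Ccnd1 (-2.96), Cdc20 (-1.54) and Cdkn2a (-1.14) kept their call. With library totals, the 10 that no longer passed were Aurka, Bub1b, Ccna2, Ccnb1, Ccnd3, Ccne1, Cdk4, Cdkn2c, Fen1 and Tyms. All 34 called genes kept their direction in every fit run, and 19 kept their call in all 11 full alternative fits. The same counts over all genes called are not given here, and every fit reuses these libraries.

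**Figure D4:**
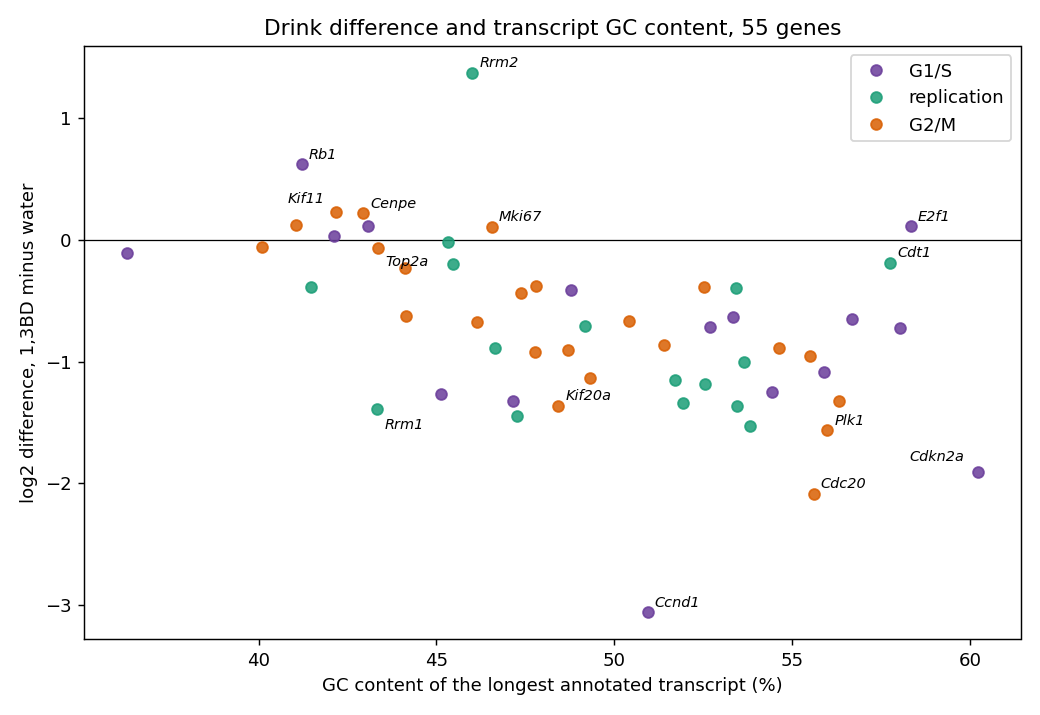
Drink difference (log2, 1,3BD minus water, limma estimate, vertical axis) against GC content of the longest annotated transcript (%, horizontal axis) for the 55 genes, coloured by role group. The G2/M points run downward from left to right (Spearman rho -0.82), while Ccnd1, Rrm1 and Rrm2 lie away from that line.

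The promoter letters were set beside these calls, gene by gene. Of the G2/M genes with a promoter, CHR letters stood in 8 of 10 that were lower and in 3 of 7 that did not pass. E2F letters stood in 3 of 8 replication genes that were lower and in 4 of 5 that did not pass, among the latter Cdc6, Cdt1, Mcm7 and Pola1. Helicase genes with E2F letters were found on both sides, with Mcm3, Mcm5 and Mcm6 lower and Mcm7 not called. No test was made of these small counts.

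Other genes of the same processes, from lists kept apart from the 55, were counted in the same fit. Of 36 other replication and S phase genes, 10 were lower (27.8%, against 24.8% of all genes tested) and 1 higher (2.78%, against 19.2%), with a median of -0.32, so the share lower was near that of all genes. The lower ones included Uhrf1, which helps to copy DNA methylation (7.91 to 25.0 CPM, with both 1,3BD libraries below both water libraries; -1.47, limma adjusted p = 0.000886), Dut (-1.13), Pold1 (-1.13) and Rfc3 (-1.11), and the higher one was Brca1 (5.35, 6.34, 9.79 and 11.9 CPM; 0.88, limma adjusted p = 0.0241). Of 45 other mitosis genes, 17 were lower (37.8%) and 3 higher (6.67%), with a median of -0.47, and the lower ones included Stmn1 (-1.34), Kif2c (-1.20), Cenpm (-1.15), Kif22 (-1.05) and Racgap1 (-0.97).

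Of 17 tested E2F, pocket protein and DREAM complex genes, 4 were higher (23.5%) and 2 lower (11.8%), with a median of 0.06. Rbl2, a pocket protein of resting cells (40.2, 44.0, 71.8 and 86.4 CPM), rose by 0.90 (SE 0.20, limma adjusted p = 0.00444), Mybl1 rose by 1.04 (SE 0.27, limma adjusted p = 0.00962) and Lin52 by 0.71 (SE 0.26, limma adjusted p = 0.0425). The repressor E2f7 fell by 0.95 (SE 0.30, limma adjusted p = 0.024) and the CDK inhibitor Cdkn2d by 0.96 (SE 0.28, limma adjusted p = 0.0157). Over all genes tested these shares were 19.2% and 24.8%.

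Cdkn1a fell, and other p53 target genes went both ways: of 17 tested, 5 were higher (29.4%, against 19.2% of all genes) and 6 lower (35.3%, against 24.8%), with a median of 0.09. Mdm2, the ligase that restrains p53 (148, 157, 371 and 451 CPM), rose by 1.42 (SE 0.20, limma adjusted p = 0.000228), and Trp53inp1 (175, 123, 475 and 403 CPM) by 1.58 (SE 0.20, limma adjusted p = 0.000124). Btg2 fell by 1.93 (SE 0.25, limma adjusted p = 0.000271), Phlda3 by 1.78 (SE 0.21, limma adjusted p = 7.64e-05) and Plk2 by 1.71 (SE 0.22, limma adjusted p = 0.000135). Of 10 early genes of growth factor signalling, 1 was higher and 3 lower (30.0%, against the same 24.8%). Myc, a transcription factor that drives growth, rose by 1.28 (33.0, 61.1, 99.5 and 121 CPM, limma adjusted p = 0.000883), while Etv4, Ier2 and Fos fell by 3.78, 1.53 and 0.98.

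Between the parents, ObF1 against LnF1, limma called 0 of the 55 genes, and edgeR and DESeq2 on the recovered reads also called 0. Over all 12838 genes tested limma called 0.195% higher and 0.101% lower in ObF1. At an unadjusted p under 0.05 there were 5 of the 55 genes by limma, 5 by edgeR and 3 by DESeq2, and limma's share over all genes at that level was 10.8%. Those 5 by limma were Cdc20 (-0.72, SE 0.23, adjusted p = 0.282), Cdkn2a (-0.62, SE 0.24, adjusted p = 0.386), Cenpa (-0.62, SE 0.25, adjusted p = 0.39), Ccnd3 (-0.61, SE 0.19, adjusted p = 0.267) and Cdk1 (-0.50, SE 0.22, adjusted p = 0.423). Each had a lower value in ObF1 than in LnF1 within both drinks, which selection by this fit favours, so it is no separate support.

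The mitotic genes leaned lower in ObF1 with water, by small amounts. Of the 23 G2/M genes, 20 had a lower value in the ObF1 water library than in the LnF1 water library (87.0%, median -0.33), against 49.8% of all genes tested. With 1,3BD the count was 15 of 23 (65.2%, median -0.07), against 48.4%, and 14 of 23 were lower in ObF1 in both drinks, against 28.5% of all genes. None of the 23 differed by as much as 2-fold in either drink, and no test is possible for a difference between single libraries. Plk1 (43.6 and 28.4 CPM), Aurka (30.8 and 20.5 CPM) and Bub1b (29.9 and 20.0 CPM) gave the widest gaps with water. The parental differences also ran with transcript GC content. Across the 23 genes Spearman rho was -0.31 with water and -0.60 with 1,3BD. Over all genes tested with a known transcript it was -0.19 and -0.42. The part of GC content in this lean was not tested.

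Among the 45 other mitosis genes, 38 were lower in ObF1 with water (84.4%, median -0.33) and 19 with 1,3BD (42.2%, median 0.05), and 0 were called. Of the 16 replication genes, 11 were lower in ObF1 with water (68.8%, median -0.06) and 8 with 1,3BD (median 0.01). Of the 16 G1/S genes, 8 were lower in each drink (medians -0.02 and -0.01). Of the 36 other replication genes, 23 were lower with water (63.9%, median -0.09) and 17 with 1,3BD (47.2%, median 0.11). Within G1/S, Ccnd1 differed by -0.52 with water and 0.14 with 1,3BD, and Cdkn2a by -0.95 and -0.28. The LnF1 water library enters both the parental comparison with water and the drink comparison in LnF1, so these are not independent. Endothelial markers, at 7.68 CPM in LnF1 water and 20.0 CPM in ObF1 water, moved the other way. So did the sums of epithelial and mesothelial (55.1 and 88.6 CPM), Schwann cell (2.67 and 15.6 CPM) and contractile markers (9054 and 9786 CPM). Progenitor markers, at 565 and 436 CPM, moved the same way, as did white blood cell markers (17.7 and 13.6 CPM). Of 5 progenitor genes tested, 4 were lower in ObF1 with water (median -0.72) and 2 with 1,3BD (median 0.29). The part of these lists was not tested.

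**Figure D5:**
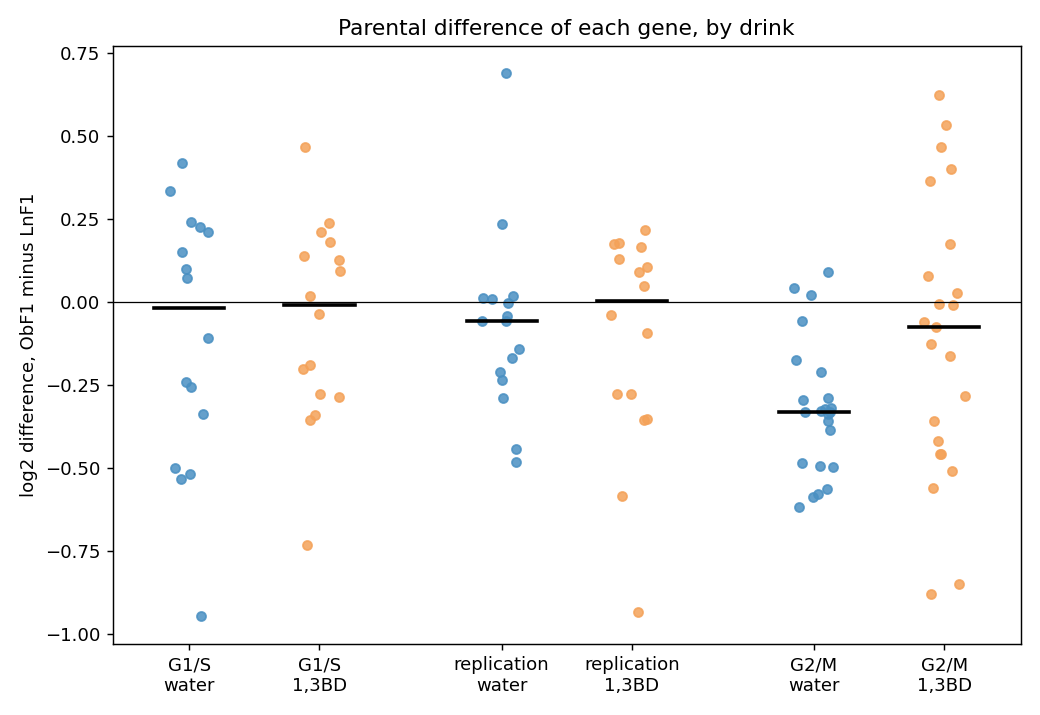
Log2 difference between ObF1 and LnF1 (vertical axis) of each gene within each drink, by role group, with 1 point per gene and a bar at the median. The G2/M median lies at -0.33 with water and at -0.07 with 1,3BD, and the other medians lie between -0.06 and 0.01.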

How the data were processed

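Gene expression was measured by RNA sequencing in 4 libraries (TRIzol, KAPA mRNA kit, per the labels' protocols). The submitters' processing notes name mm10, edgeR and DESeq2 without roles; for the aligner, counter, annotation and strand, nothing is given in the sources used here. Although its name speaks of raw counts, the authors' table holds a scaled signal per gene (CPM after scaling factors of 0.885 to 1.134). Divided by the value of 1 read, 100% of its entries were whole (relative tolerance 1e-06). The columns Ln and Ob name no drink and were matched to water.

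The main test was limma 3.58.1 (R 4.3.3) on log2(CPM + 0.0796), where the pseudocount equals 2 reads, using trend and robust moderation, additive in drink and parents, with Benjamini-Hochberg adjustment over all genes tested. Differences on this scale understate those of low genes. Single-library differences have no test, and counting intervals, like the floor of 3 reads (0.108 to 0.130 CPM) that a count of 0 allows, cover counting error only. Alternatives were library totals, DESeq2 size factors, pseudocounts of 0.5 and 1, no filter or a mean of at least 5 CPM, limma without robust moderation, edgeR 4.0.16, DESeq2 1.42.0, fits without the other factor, fits without each library and the other factor, and, chosen after seeing the data, removal of a length and GC trend. Exon lengths and GC content come from GENCODE (GRCm38), found for 99.8% of identifiers. The test was also run on simulated data in which few genes changed, and its outcome is not given here. The drink contrast called 44% of all genes tested, so that run does not check its calls.

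The genes and lists were chosen with earlier results of these data known. Values are printed for called genes with the largest smaller single-library difference, about 8 per role, for genes moving against their role group, and for at most 5 per other list; smaller calls and other genes beside them were added after their values were seen.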

Additional observations from a re-analysis of the deposited data

Results flagged for a closer look

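For 7 genes the 2 single-library differences under one contrast exceeded counting error and had opposite signs, and the difference between them was not tested. Values are log2 differences.

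For the drink (1,3BD minus water), Mki67 was -0.25 in LnF1 and 0.47 in ObF1. Mad2l1, a spindle checkpoint protein, was -0.35 in LnF1 and 0.23 in ObF1. Pcna was -0.19 in LnF1 and 0.15 in ObF1.

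For the parents (ObF1 minus LnF1), Mki67 was -0.32 with water and 0.40 with 1,3BD, and Birc5, which encodes survivin, was -0.36 and 0.47. Ccna2, cyclin A2, was -0.34 with water and 0.37 with 1,3BD. Cenpe was -0.33 and 0.18, and Pcna was -0.21 and 0.13. Ccnd2 went the other way, at 0.21 with water and -0.34 with 1,3BD. The 4 libraries enter both contrasts, so Mki67 and Pcna appear in each from the same values.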

How the results depend on the processing

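Fits without 1 library also dropped the other factor from the model, so their values mix in that factor, and they assume that the lone library varies like the others. Without 1 library at a time, the genes lower with 1,3BD ranged from 8 to 27 over the 55, from 4 to 9 in G1/S, from 2 to 8 in replication and from 1 to 10 in G2/M; 1 of the 55 and 0 in G1/S stayed higher, and over all genes 668 to 1926 were higher and 1232 to 2731 lower. Without parents in the model 1 of the 55 and 0 in G1/S were higher. G1/S genes lower were 6 with library totals and 6 with the length and GC trend removed, an alternative chosen after seeing the data. Over all genes, library totals gave 3687 higher and 2270 lower. Genes higher in ObF1 over all genes numbered 16 with library totals, 11 and 8 with pseudocounts of 0.5 and 1, 196 without a filter, 10 at a mean of at least 5 CPM, 69 by DESeq2, 0 without the drink and 0 without any 1 library. Genes lower in ObF1 numbered 5, 5, 156, 5, 48 and 0 for pseudocounts of 0.5 and 1, no filter, the mean of 5, DESeq2 and no drink, and 0 to 2 without 1 library.

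Differences for drink that were not called changed sign as follows. With library totals they were 0.14 for Ccne2, 0.054 for Mcm4, 0.23 for Pcna, 0.058 for Cdt1, 0.018 for Cdc25c, 0.19 for Mad2l1 and 0.18 for Top2a. Pcna was also 0.030 with DESeq2 size factors, 0.040 by edgeR and 0.030 by DESeq2, and Mad2l1 was 0.00028 by edgeR. With the length and GC trend removed they were -0.49 for Rbl1, -0.30 for Cdkn1b, 0.43 for Cdt1, -0.40 for Bub1, -0.21 for Mki67, -0.30 for Cenpe and -0.32 for Kif11. Without 1 library at a time the range was -0.31 to 0.11 for Ccne2, -0.0080 to 0.23 for E2f1, -0.086 to 0.14 for Rbl1, -0.12 to 0.35 for Cdkn1b, -0.12 to 0.088 for Pcna, -0.48 to 0.019 for Cdc25c, -0.37 to 0.25 for Mad2l1, -0.17 to 0.040 for Top2a and -0.093 to 0.31 for Mki67. For parents it was -1.73 to 0.50 for Cdkn2a and -1.84 to 0.40 for Cdc20; these fits hold no drink term and unequal drinks in the 2 parental groups, so they carry the drink difference and say nothing of the stability of the parental one, which was below 0 in both drinks for both genes. For the other changes the cause was not tested. No paired analysis was possible because the labels carry no replicate numbers and each combination has 1 library. Depth limits Fen1 most (8 to 36 reads), while 52 of the 55 genes had at least 100 reads in every library.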
